A study of Mus musculus with 4 samples.

Results

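The 9 genes described here, Myo3a, Myo3b, Espn, Espnl, Myo7a, Cdh23, Pcdh15, Ush1c and Whrn, were chosen by name as class III and class VII myosins, espins and Usher complex genes, and all 9 were found among the 42458 rows of the deposited count table. They were followed in bulk RNA-seq libraries from the spinal cord of 4 wild-type C57BL6/J mice, all of which had received AAV2-CAG-tdT, an adeno-associated virus that codes for the red fluorescent protein tdTomato, into the cerebral ventricles. Each library came from 50 cells of 1 mouse, sorted by scatter, tdTomato and a dead-cell dye for neurons that contact the cerebrospinal fluid (CSF-cNs). These sit at the central canal and send an apical process into the fluid. The CAG promoter is active in many cell types, the age of the mice is not given in the labels, and the 4 libraries form a single group, so levels and their spread over mice can be described but no conditions compared. Lists of 4 values follow the order of mice 1, 2, 3 and 4 throughout.

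In hair cells of the inner ear these genes build the stereocilia, actin-filled apical protrusions that detect movement. Espins bundle actin, class III myosins carry espins towards the tips, and the cadherins coded by Cdh23 and Pcdh15 form the tip link between neighbouring stereocilia. Harmonin (Ush1c) and whirlin (Whrn) are PDZ scaffolds, and myosin VIIa (Myo7a) is a motor that binds the Usher scaffolds. CSF-cNs also carry microvilli-like apical protrusions, and espin and a class III myosin are known from the apical extension of these neurons.

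Total counts ranged from 83007030 to 115479640 per library, so that a count of 0 allowed a level of at most 0.0278 to 0.0348 CPM, the upper limit set by 3 counts for counting error alone. RNA lost before sequencing is not covered by this limit. CPM are counts per 1000000 counts of a library, with library sizes scaled by TMM. The libraries differed in their cell type markers. The transgene row had 5, 58, 13533 and 153379 counts, and the 7 CSF-cN markers that are not among the 9 genes summed to 18.8, 10.5, 844 and 772 CPM, so mice 1 and 2 nearly lacked the defining markers of the labelled cell type. Of those markers the channel gene Pkd2l1 stood at 17.9, 0.193, 664 and 690.2 CPM, and P2rx2 had no count in any library. The 10 microglia markers summed to 53004, 58988, 34927 and 50873 CPM, and the 10 oligodendrocyte markers to 15065, 238, 19260 and 459 CPM. In bulk libraries such as these, fewer cells of a type and less RNA per cell cannot be told apart.

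The 9 genes summed to 86.8, 89.8, 139 and 123 CPM, on average 109.6 ± 25.4 (SD, n = 4). The sum varied far less between libraries than Myo3b did, and different genes made up most of it in mice 1 and 2 than in mice 3 and 4. Myo7a, Cdh23 and Whrn gave 98.3% and 97.3% of it in mice 1 and 2 and 27.6% and 39.2% in mice 3 and 4. Myo3b, Espn, Pcdh15 and Ush1c gave the rest apart from the counts of Myo3a, and reached 72.4% and 60.8% in mice 3 and 4. These sets were formed after the values were seen and describe the libraries only.

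**Figure D1:**
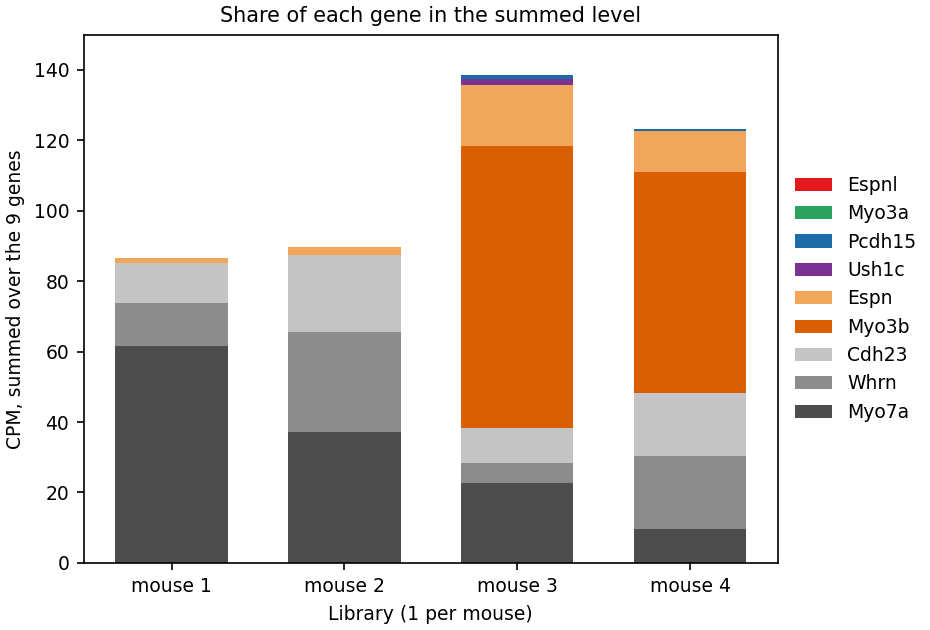
Stacked bars give the CPM of each of the 9 genes in the library of each mouse, starting at 0. The sum lies between 86.8 and 139 CPM, with Myo7a, Whrn and Cdh23 (grey) filling the bars of mice 1 and 2 and Myo3b (orange) forming the largest block in mice 3 and 4.

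Myo3b, which codes for the motor and kinase myosin IIIb, had the highest level of the 9 genes in mice 3 and 4, also per exonic length. It had 4, 0, 6925 and 5625 counts, or 0.037, 0, 80.3 and 62.7 CPM. Mice 3 and 4 were high, and the 4 counts of mouse 1 and the absence of counts in mouse 2 lay close to the level that a count of 0 allows. The 95% Clopper-Pearson intervals of mice 3 and 4 were 78.4 to 82.2 and 61.0 to 64.3 CPM. The gene lies on the plus strand of chromosome 2 from 70039126 to 70429198 (GRCm38, gene ENSMUSG00000042064.13), and 70 of its 7039 exonic bases are shared with the non-coding gene Gm13631.

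Its paralogue Myo3a, which codes for myosin IIIa, was essentially without counts. It had 3 counts in mouse 1, all of them in 1 of the 2 sequencing runs, and none in the other mice. Compared per exonic length within a library, Myo3b was at least 2605-fold higher than Myo3a in mouse 3 and at least 2116-fold higher in mouse 4, where 3 counts stand in for the absent Myo3a. These bounds cover counting error only. In mouse 1 Myo3b and Myo3a had 4 and 3 counts, and in mouse 2 neither had any.

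Espn, the gene of the actin bundler espin, was found in every library. It had 155, 223, 1490 and 1051 counts, or 1.44, 2.39, 17.3 and 11.7 CPM. The lower of the values in mice 3 and 4 was above the higher of those in mice 1 and 2. The counting intervals of those libraries (11.0 to 12.4 and 2.08 to 2.72 CPM) were apart, but they do not cover the spread between mice. Espn lies on the minus strand of chromosome 4 from 152120331 to 152152371 (gene ENSMUSG00000028943.18), and its 20 annotated transcripts start at several places, which gene counts do not separate. In contrast to Myo3b, Espn kept more than a trace in mice 1 and 2, with 155 and 223 counts. Its paralogue Espnl, which codes for an espin-like protein, had no count in any library, and Espn was per length at least 34-fold, 48.9-fold, 327-fold and 231-fold higher. Such bounds again put 3 counts in place of none and cover counting error only.

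Mice 3 and 4, in which Myo3b and Espn were high, also had the higher sums of the 7 CSF-cN markers, of the 8 pan-neuronal markers (129, 73.2, 1059 and 389 CPM), of the 10 ependymal markers (1.72, 3.4, 13.6 and 75.3 CPM) and of the 4 oligodendrocyte precursor markers (0.13, 0.482, 4.0 and 1.01 CPM). The precursor sum was nearly all Vcan (0.111, 0.482, 4.0 and 0.969 CPM). Pdgfra and Gpr17 had no count in any library, and Cspg4 had at most 0.0446 CPM. The sum of the 4 fibroblast markers (8.37, 0.107, 994 and 109 CPM) was nearly all Dcn, a gene of the extracellular matrix (1.41, 0.0963, 989 and 108 CPM). Of the other fibroblast markers, Col1a1 had no count, Lum had at most 0.769 CPM, and Col1a2 was highest in mouse 1 (6.96 CPM). The part of these cells in the levels of Myo3b and Espn was not tested. The mean over the 4 mice was 35.7 ± 41.9 CPM for Myo3b (SD, n = 4) and 8.2 ± 7.62 CPM for Espn, so that for Myo3b the SD exceeded the mean. Over mice 3 and 4 alone the means were 71.5 CPM for Myo3b, 14.5 CPM for Espn, 16.2 CPM for Myo7a, 13.2 CPM for Whrn and 13.9 CPM for Cdh23.

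The promoters of Myo3b and Espn are shown with that of Whrn, a gene without the same pattern over the libraries, because the list of CSF-cN markers includes the GATA and TAL factors, which are known to bind GATA and CANNTG words. Each line holds the 250 bases before the RefSeq start of the gene on GRCm38.p6, 5′ to 3′ on the gene's own strand, with any match in capitals. They lie at chr2:70038876-70039125 (plus strand), chr4:152152390-152152639 (minus strand, the first of 3 listed starts of Espn) and chr4:63495992-63496241 (minus strand).
Myo3b: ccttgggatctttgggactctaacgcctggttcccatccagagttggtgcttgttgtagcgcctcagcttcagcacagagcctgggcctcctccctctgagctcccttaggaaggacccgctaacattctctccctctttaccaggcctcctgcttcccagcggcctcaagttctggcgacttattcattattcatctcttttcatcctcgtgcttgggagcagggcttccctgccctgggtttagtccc
Espn: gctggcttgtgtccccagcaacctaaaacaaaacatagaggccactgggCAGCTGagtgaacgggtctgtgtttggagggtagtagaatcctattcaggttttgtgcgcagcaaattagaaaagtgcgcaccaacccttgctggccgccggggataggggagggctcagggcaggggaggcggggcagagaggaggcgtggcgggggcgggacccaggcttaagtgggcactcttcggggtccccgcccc
Whrn: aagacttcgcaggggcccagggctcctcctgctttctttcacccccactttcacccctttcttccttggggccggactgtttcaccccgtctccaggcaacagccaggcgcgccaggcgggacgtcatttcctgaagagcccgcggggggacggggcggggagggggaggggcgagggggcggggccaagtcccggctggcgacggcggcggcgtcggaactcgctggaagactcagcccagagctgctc

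The GATA words searched on both strands were AGATAA with its variant AGATAG, as well as TGATAA with its variant TGATAG. The other word was CANNTG, which reads alike on both strands and can share its last bases with a GATA word. In windows that reach from 250 bases before to 50 bases after a start, a GATA word was found at 2 of the 12 starts of the 9 genes, those of Espnl and Pcdh15, and in 29.8% of all 32851 promoter windows. A CANNTG word was found at 8 of the 12 starts and in 72.3% of all windows. The window of Myo3b, whose shown bases also lie partly in Gm13631, had neither word, and that of Whrn had neither. Espn had 1, 0 and 3 CANNTG words at its 3 listed starts, of which only the first is shown, and no GATA word. A match describes letters in a window only, and the absence of one says nothing about the factor.

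The Usher complex genes Pcdh15 and Ush1c were low and also without counts in mice 1 and 2. Pcdh15 had 0, 0, 95 and 46 counts, or 0, 0, 1.1 and 0.513 CPM, so that it was seen in the same libraries as most Myo3b. Ush1c had 145 counts in mouse 3 (1.68 CPM) and none in the other mice, split evenly over the sequencing runs with 73 and 72 counts. The count of 0 in mouse 4 allowed at most 0.0334 CPM for counting error alone, so Ush1c was not seen beside Myo3b in that library. RNA of Ush1c lost before sequencing is not covered by this limit. Pcdh15 lies on chromosome 10 from 73099342 to 74649737 and Ush1c on chromosome 7 from 46195350 to 46238503, where 120 of its 3849 exonic bases are shared with Gm9860 on the opposite strand.

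**Figure D2:**
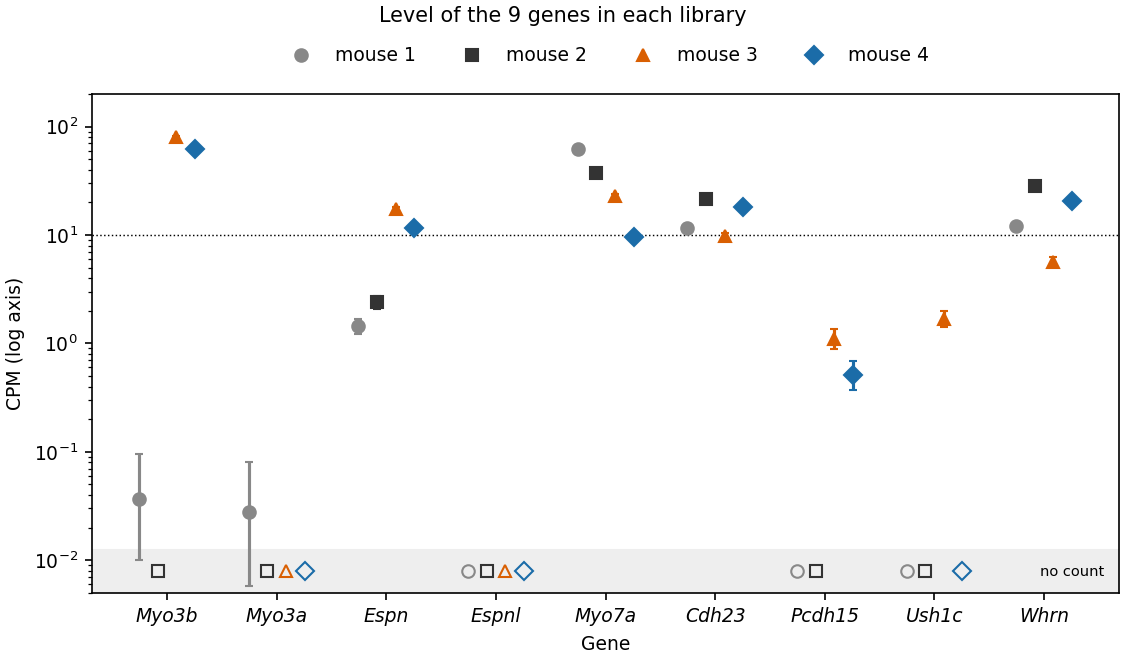
Points give the CPM of each gene in each library on a log axis with 95% counting intervals, open symbols in the grey band mark libraries without a count, and the dotted line marks 10 CPM. Myo3b stands at 80.3 and 62.7 CPM in mice 3 and 4 and next to nothing in mice 1 and 2, while Myo7a, Cdh23 and Whrn stand at 5.69 CPM or more in all 4 libraries.

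Myo7a, Cdh23 and Whrn were present in all 4 libraries. Myo7a had 6667, 3474, 1971 and 854 counts, or 61.7, 37.2, 22.8 and 9.52 CPM, on average 32.8 ± 22.3 CPM (SD, n = 4). Its values in mice 1 and 2 were both above those in mice 3 and 4, the opposite order to Myo3b and Espn. Myo7a lies on the minus strand of chromosome 7 from 98051060 to 98119524 (gene ENSMUSG00000030761.15) and shares no exonic base with another annotated gene.

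Cdh23 and Whrn were high in mice 2 and 4 and low in mice 1 and 3. Cdh23 stood at 11.5, 21.7, 9.7 and 18.1 CPM, a mean of 15.2 ± 5.6 CPM, the narrowest spread of the 7 genes with at least 10 counts (SD of log2(CPM + 1) 0.51, against 3.55 for Myo3b). The added 1 flattens values near 0, so the low genes Pcdh15 (0.52) and Ush1c (0.71) are not compared on equal terms. Whrn stood at 12, 28.5, 5.69 and 20.7 CPM, a mean of 16.7 ± 9.97 CPM. For both genes mouse 2 was the highest and mouse 3 the lowest library. The microglia markers also had their highest sum in mouse 2 and their lowest in mouse 3. Their sum was higher in mouse 1 than in mouse 4 (53004 and 50873 CPM), whereas both genes were lower in mouse 1. The oligodendrocyte markers summed to 15065, 238, 19260 and 459 CPM, low in mice 2 and 4, where both genes were high. The part of either cell type in these levels was not tested.

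Cdh23 spans 393743 bases of chromosome 10 on the minus strand, from 60302748 to 60696490 (gene ENSMUSG00000012819.15), and Vsir, an immune checkpoint gene, lies inside that span on the plus strand without sharing an exonic base. Vsir stood at 1030, 1263, 719.7 and 939 CPM, and Cdh23 amounted to 1.12%, 1.72%, 1.35% and 1.92% of it. The libraries do not keep the strand. The part of Vsir reads in the level of Cdh23 was not tested. Whrn lies on the minus strand of chromosome 4 from 63414910 to 63495991 (gene ENSMUSG00000039137.18) and overlaps no other annotated gene.

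**Figure D3:**
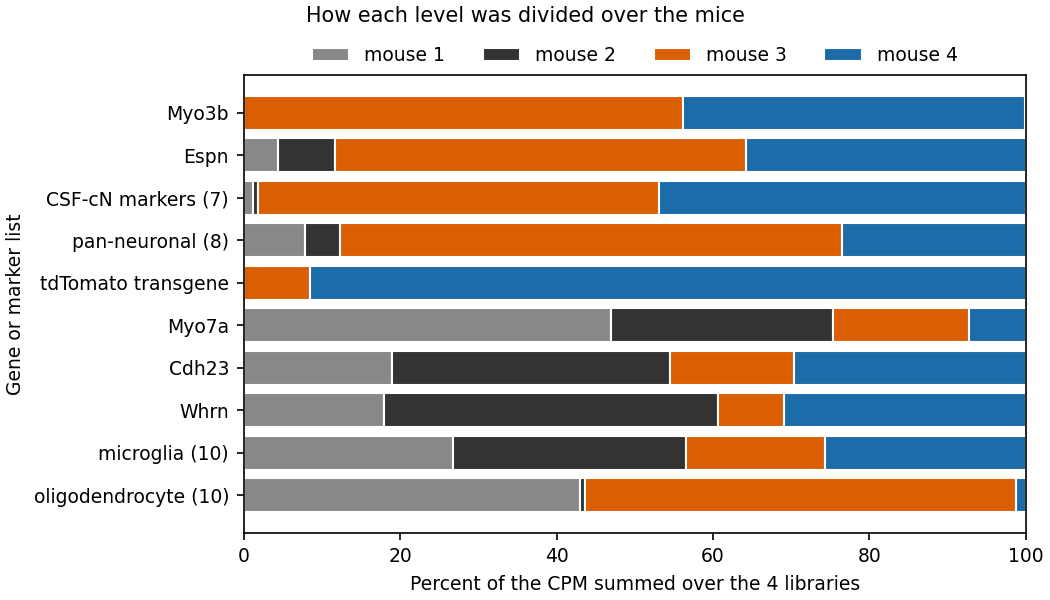
Each bar divides the CPM of a gene, of a marker list (number of markers in brackets) or of the transgene, summed over the 4 libraries, into the percent found in each mouse. Mice 3 and 4 hold nearly all of Myo3b, of the CSF-cN markers and of the transgene, and 52.6% and 35.7% of Espn, whereas mice 1 and 2 hold 47.0% and 28.3% of Myo7a.

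Scaled to exonic length, so that genes can be compared with each other, the mean levels over the 4 mice were 5.08 ± 5.95 CPM per kb for Myo3b (SD, n = 4), 3.83 ± 2.61 for Myo7a, 2.28 ± 1.36 for Whrn, 0.991 ± 0.921 for Espn and 0.9 ± 0.331 for Cdh23. Ush1c (0.109 ± 0.218), Pcdh15 (0.017 ± 0.022), Myo3a and Espnl followed. The exonic length joins the exons of all annotated transcripts of a gene, for Pcdh15 23773 bases from 41 transcripts. All orders and folds per length therefore depend on the annotation. Between neighbours in this order the mean log2 ratio within a mouse exceeded its SD for only 1 of the 8 steps, from Cdh23 to Ush1c (2.66 ± 1.59, Cdh23 higher in 4 of 4 mice). The order at the top therefore depended on the library. The log2 ratio of Myo3b to Myo7a was -6.12, -5.47, 2.06 and 2.89, with Myo3b the lower gene in mice 1 and 2 and the higher in mice 3 and 4.

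**Figure D4:**
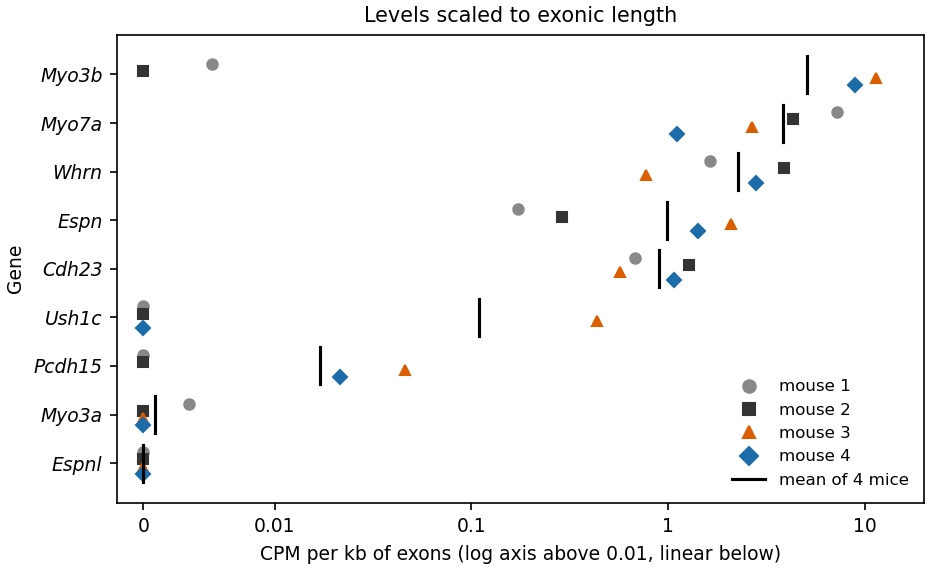
Points give the CPM per kb of exons of each gene in each library, on an axis that is logarithmic above 0.01 and linear below, and black bars give the mean of the 4 mice. Myo3b has the highest mean (5.08) and the widest spread, while the points of Cdh23 lie between 0.573 and 1.28.

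Pairs of related genes were compared within each mouse as the log2 ratio of CPM per kb, with 0.1 added to both values, over 5 pairs. Cdh23 exceeded Pcdh15, its partner in the tip link, in 4 of 4 mice, by 2.96, 3.79, 2.2 and 3.26, averaging 3.05 ± 0.66 (SD over 4 mice). A two-sided exact permutation of signs over mice gave the smallest p that 4 mice allow, 2 of the 16 sign patterns, and an adjusted p of 0.156 over the 5 pairs (Benjamini-Hochberg). Per length this was 12.4-fold in mouse 3 and 49.5-fold in mouse 4, while in mice 1 and 2 Pcdh15 had no count, so that the ratio could not turn negative there. Whrn exceeded Ush1c in 4 of 4 mice (mean 3.75 ± 2.09, again the smallest exact p, adjusted 0.156), by 1.78-fold in mouse 3, the only library with counts of Ush1c. In mice 1, 2 and 4 this ratio could not turn negative, so the direction was largely fixed by the absence of Ush1c counts. Myo3b over Myo3a had a mean of 3.34 ± 3.85 (0.02, 0, 6.85 and 6.49; exact p = 0.25, adjusted 0.25). Myo3a had no count in mice 2, 3 and 4, so the ratios there could not turn negative either. Espnl and Myo7b, the brush border paralogue of Myo7a, had no count, so the ratios of Espn (2.95 ± 1.46) and Myo7a (5.01 ± 1.1) to them could not turn negative and their tests show nothing. The smallest exact p is above 0.05, so no pair could pass that threshold. The sizes depend on the value added before the ratio is taken, with Cdh23 over Pcdh15 at 0.89 when 1 and at 5.4 when 0.01 was added, Whrn over Ush1c at 1.48 and 6.23, Myo3b over Myo3a at 1.74 and 5.03, Espn over Espnl at 0.87 and 5.99, and Myo7a over Myo7b at 2.1 and 8.28.

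Each gene with at least 10 counts was tested against a fixed level of 10 CPM, with edgeR's quasi-likelihood test on all 18522 such genes. The filter kept 7 of the 9 genes and left out Myo3a and Espnl. Myo7a was the only 1 of the 7 called above 10 CPM (log2 level 1.71, SE 0.34, Benjamini-Hochberg adjusted p = 0.0068), where 36.7% of all tested genes were called above and 0.664% below. Without mouse 1, the library with the highest Myo7a, the call was lost (log2 level 1.25, edgeR adjusted p = 0.064), as it was without mice 1 and 2 (0.76, adjusted p = 0.41). limma-voom also called Myo7a alone above (adjusted p = 0.015), where it called 35.9% of all genes.

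The other 6 genes were not separated from 10 CPM by edgeR. Myo3b had a log2 level of 1.84 with an SE of 1.2 (adjusted p = 0.27), the largest edgeR estimate of the 7 genes. limma-voom, which averages log values, put it at -3.5 (adjusted p = 0.21), so that the sign for Myo3b turned with the tool. Without mice 1 and 2, which nearly lacked the CSF-cN markers, Myo3b was the only 1 called above (log2 level 2.9, edgeR adjusted p = 0.00034; background 37.0% of genes called). That choice keeps the libraries in which Myo3b was known to be high and is no independent support. Whrn (0.74, SE 0.4), Cdh23 (0.61, SE 0.33) and Espn (-0.29, SE 0.74) lay within about 2 SE of 10 CPM, and the estimate for Espn changed sign without mouse 1 (0.1) or mouse 2 (0.03). No member was called below by edgeR, 0 also at an unadjusted p under 0.05, and DESeq2 called 0, with the adjusted p of Ush1c not given. limma-voom called 2 below, Pcdh15 (adjusted p = 0.011) and Ush1c (adjusted p = 0.0038), where it called 33.3% of all genes below. Since edgeR called 0.664% of all genes below, its count of 0 members says little about low levels. Against 1 CPM in place of 10, edgeR called 5 of the 7 genes above, all but Pcdh15 and Ush1c, where 59.1% of all tested genes were called.

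Further genes of stereocilia and microvilli were taken from 8 fixed lists with 48 genes. Of these, 27 could be tested, and edgeR called 10 of them (37.0%) above 10 CPM, close to the 36.7% of all tested genes, and 1 below. No count in any library was found for 19 of the 48 genes (39.6%) and for 50.2% of all 42458 rows. These counts therefore say nothing particular about the lists, and the values of single genes follow as a description. The median log2 level relative to 10 CPM was 0.17 over the 27 genes, 0.61 over the 7 tested members and -0.07 over all 18522 tested genes.

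Of 5 further Usher and ankle-link genes 4 were tested, and edgeR called 0 in either direction. Over all tested genes it called 36.7% above and 0.664% below. At an unadjusted edgeR p under 0.05, 1 of the 4 passed. limma-voom called 0 above and 2 of the 4 tested below, against 35.9% and 33.3% of all genes. DESeq2 called 0, leaving 2 without an adjusted p, and its share over all genes is not given. With 4 genes tested, these counts say little about the list. Cib2, which codes for a calcium-binding partner of the transduction channel, was even over the libraries (12.5, 16.9, 17.2 and 20.4 CPM). Clrn1, the clarin gene, stood at 28.3, 0.0428, 18.7 and 0.0111 CPM and the adhesion receptor gene Adgrv1 at 6.94, 0, 1.67 and 0 CPM. Both were higher in mice 1 and 3, where the 10 oligodendrocyte markers summed to 15065 and 19260 CPM, and near 0 in mice 2 and 4, where they summed to 238 and 459 CPM. Their part was not tested. Ush1g, which codes for a scaffold of the Usher complex, had no count.

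The channel complex to which the tip link attaches was represented in part. The channel genes Tmc1 and Tmc2 had no count in any library. Lhfpl5, whose protein joins protocadherin 15 to the channel, stood at 0, 0, 5.56 and 2.12 CPM and had counts in the same libraries as Pcdh15. Tmie, an accessory subunit, was at 0, 0, 0.22 and 2.65 CPM. Tomt, needed for channel transport, was the only gene of the 8 lists called below 10 CPM (0.0741, 0.0107, 0.058 and 0.0334 CPM; edgeR adjusted p = 0.033). The call was lost when mouse 2, 3 or 4 was left out, and without mouse 1 Tomt fell under the count filter.

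Genes of actin protrusions in general made up the 10 called above. All 3 of the called bundler genes were present in every library: Lcp1, the leukocyte plastin gene (721, 755, 488 and 711 CPM), the fascin gene Fscn1 (156, 117, 114 and 98.3 CPM) and the plastin gene Pls3 (32.2, 45.0, 117 and 59.5 CPM). Pls3 was highest in mouse 3. Lcp1 was lowest there, as the microglia sum was, and the part of microglia was not tested. The hair-bundle bundlers Fscn2 and Xirp2 had no count. Of the length-regulating genes, Twf2 (mean 176 ± 30.0 CPM, SD, n = 4), Gnai3 (131 ± 46.3 CPM) and the capping gene Eps8 (34.7 ± 16.6 CPM) were called above 10 CPM by edgeR, as were the myosin genes Myo6 (70.9 ± 37.5 CPM) and Myo1c (24.5 ± 9.88 CPM). Myo10, the gene of a filopodial myosin, stood at 0.657, 0.0428, 7.23 and 1.77 CPM, highest in mouse 3. Of the membrane linkers, the moesin gene Msn (433 ± 105 CPM) and the radixin gene Rdx (168 ± 47.2 CPM) were called, while Tprn, the gene of taperin at the base of stereocilia, stood at 20.8, 4.47, 14.0 and 0 CPM. Most of the 10 called genes are used by many cell types.

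Most genes that define hair cells and the intestinal brush border had no count. Of 6 hair cell genes, Atoh1, Pou4f3, Otof, Strc and Ocm had no count, and Gfi1 had at most 0.0111 CPM. Of 6 brush border genes, Cdhr2, a protocadherin gene of microvilli, was the only one with counts, and these were all in mouse 3 (3.48 CPM), while Vil1, the villin gene, had none. Mouse 3 was also the only library with Ush1c, whose protein binds that of Cdhr2 in brush borders. This is not particular to the pair, since Pdzd7 (1.56 CPM) and Pjvk (0.545 CPM) of the related lists also had counts in mouse 3 only. That library had the most genes with at least 10 counts, 15767 against 13794, 13527 and 14608 in mice 1, 2 and 4. Myo15a, the gene of the motor that carries whirlin in hair cells (listed as Myo15 in the table), had no count in any library.

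**Figure D5:**
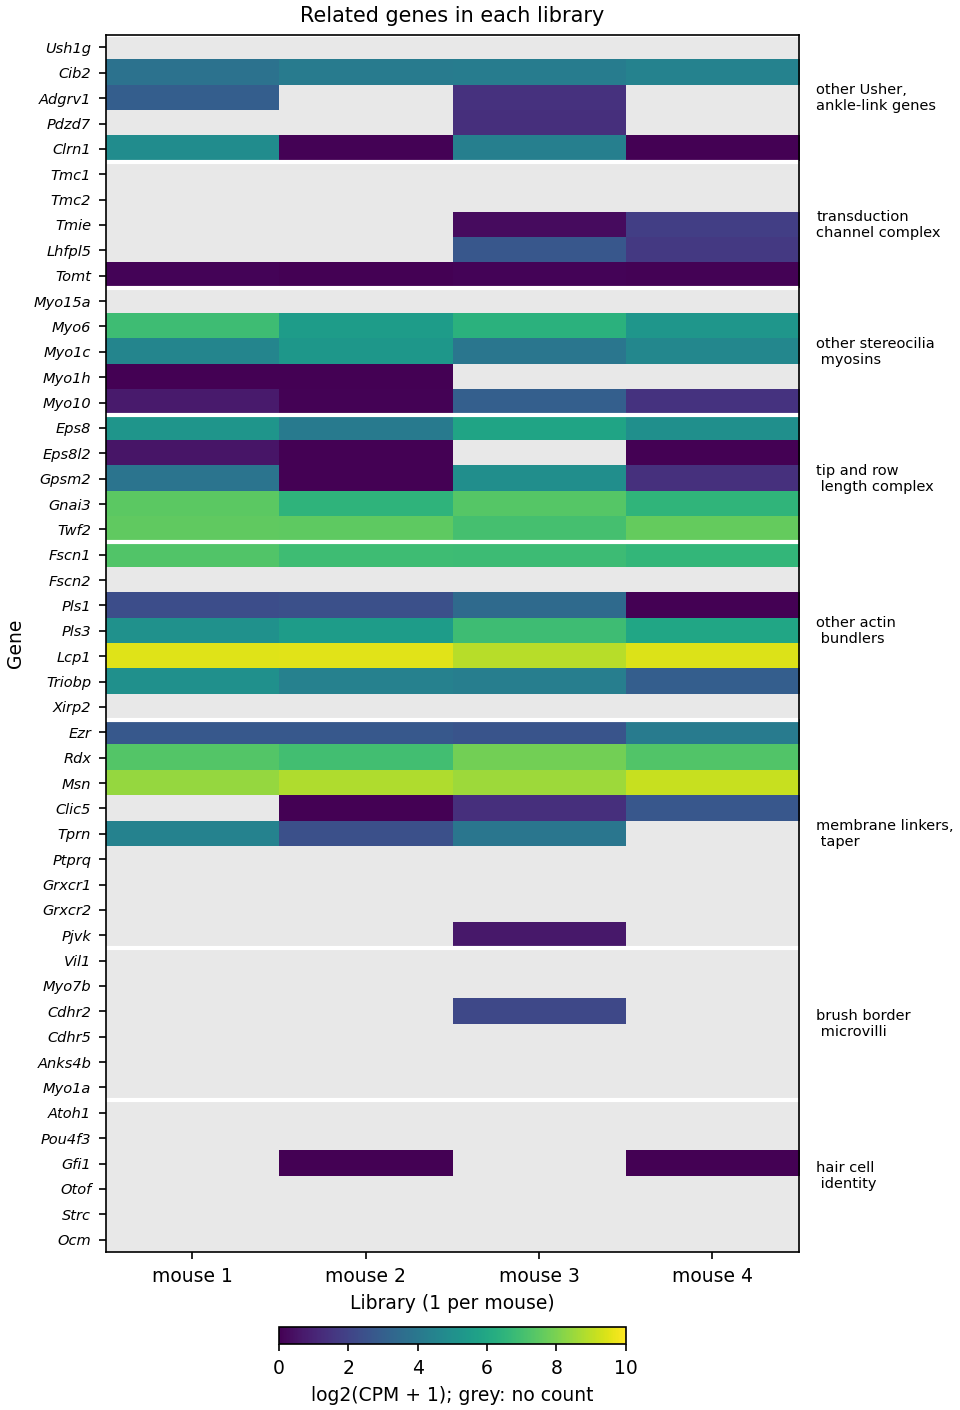
The colour of each cell gives log2(CPM + 1) of a gene of the 8 related lists (rows, grouped by list) in a library (columns), and grey marks the absence of counts. Lcp1, Msn, Rdx, Twf2, Gnai3 and Fscn1 are bright in all 4 columns, Clrn1 in mice 1 and 3, and the hair cell rows are grey or near 0 in every column.

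For the 5 members whose mean reached 5 CPM, the 3 genes of most similar profile, among 10779 genes that reached this mean, were taken by the root mean square difference of log2(CPM + 1), centred over the 4 mice. Closest to Myo3b were the LIM-domain gene Lmo1 (0.037, 0.0107, 71.4 and 64.9 CPM; difference 0.08), Caly (0.14) and Minar2 (0.15). Closest to Espn were Zwint (0.15), Gtf2ird1 (0.15) and Pprc1 (0.19), all higher in mice 3 and 4. Closest to Myo7a were Tmtc3 (0.06), Zfp119a (0.13) and the co-chaperone gene Bag3 (0.14). Closest to Cdh23 were the immunoproteasome gene Psmb10 (0.01), the RNA-processing gene Cpsf6 (0.02) and the blood-cell transcription factor gene Ikzf1 (51.5, 93.2, 45.7 and 79.5 CPM; 0.03). Closest to Whrn were Pxdc1 (0.05), 0610030E20Rik_1 (a row named as a second copy, 0.07) and Rasa4 (46.9, 117, 22.0 and 81.1 CPM; 0.08). A profile rests on 4 values here, so these are descriptions and carry no test.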

How the data were processed

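RNA of 50 sorted cells per mouse was amplified over 11 PCR cycles (SMART-Seq v4) and tagged into libraries (Nextera XT), per the labels' protocols. These libraries cover whole transcripts, keep no strand and carry no molecular identifiers. The deposited counts are whole numbers per gene in 2 columns per mouse. FastQC, Trim Galore, STAR, RSEM, DESeq2 and mm10 are named per the submitters' processing notes. Roles, versions and any rounding are not stated there. The authors also deposited log2 values, which from the values equal log2 of the summed counts divided by a size factor, plus 1. They served only as an alternative.

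The columns of a mouse (Spearman correlation 0.9976 to 0.9985 over genes with at least 10 counts) were taken as repeat runs and summed. Between them the mean chi-square per gene was 1.94 to 2.19, more than counting error. CPM used edgeR's TMM factors (0.935, 0.982, 1.04 and 1.05). The level test was an intercept-only quasi-likelihood fit (edgeR 4.0.16, R 4.3.3) with an offset at 10 CPM, with F taken from the deviances of the fits. As SE, the size of the log2 level over the root of F was used, and p-values were adjusted over all 18522 tested genes at a threshold of 0.05. The fit was also run on simulated data, whose outcome is not given and is used for no statement here. limma 3.58.1 and DESeq2 1.42.0 were alternatives, with other scalings, filters, runs and left-out libraries. GENCODE M21 (GRCm38, which is mm10) supplied exonic lengths and positions for all 9 genes. Promoters come from RefSeq (GRCm38.p6) and matched all 9 symbols. Python 3.11.15 with scipy 1.17.1 was used for the remaining steps.

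The members, lists, reference level and alternatives were chosen with earlier results of these data known. The genes named are the 9 members, the 3 genes of highest mean in each related list, the called genes of these lists, and the 3 nearest profiles of members with a mean of at least 5 CPM. Tmc1, Tmc2, Ush1g, Fscn2, Xirp2, Myo15a, Otof, Strc, Ocm, P2rx2, Dcn, Lum, Col1a1, Col1a2, Vcan, Pdgfra, Gpr17, Cspg4, Pdzd7, Pjvk, Vsir, Gm13631 and Gm9860 were named after their values were seen. One gene first chosen for the lists was left out of them and is not reported here. Of the marker lists, astrocyte (1253, 161, 1349 and 299 CPM), endothelial (18.1, 12.2, 14.2 and 23.1 CPM), mural (0.157, 0.0321, 0.0116 and 2.62 CPM) and red blood cell (3.44, 2.43, 1.68 and 3.08 CPM) sums were checked as well. The astrocyte sum was mostly Aldoc (835, 11.6, 846 and 118 CPM), S100b (298, 4.2, 439.9 and 10.5 CPM) and Slc1a3 (115, 122, 52.1 and 155 CPM). Each other astrocyte marker had at most 23.4 CPM, the value of Gfap in mouse 2.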

Additional observations from a re-analysis of the deposited data

Results flagged for a closer look

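Within the group of 4 libraries, Ush1c and Myo3a each had 1 library that stood apart from the other 3. Ush1c was at 1.68 CPM in mouse 3, from 145 counts, and had no count in mice 1, 2 and 4. Myo3a was at 0.0278 CPM in mouse 1, from 3 counts, which equals the level that a count of 0 allows in that library. Any gene with counts in a single library stands apart in this way, so that the usual rate of chance flags, about 1 in 20 groups, does not hold for these values. In all, 15 sets of values were examined.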

How the results depend on the processing

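No paired comparison of conditions was possible because the 4 libraries form a single group, and only the ratios of gene pairs were taken within a mouse. The mean pair ratios of Myo3b to Myo3a, Whrn to Ush1c and Cdh23 to Pcdh15 kept their sign under every alternative run, and for the other pairs the sign was fixed by the absence of counts. In the named pairs too, libraries without counts of the second gene could not give a negative ratio, so the kept sign says little. The count of members above 10 CPM, which was 1, became 5 against 1 CPM, where 59.1% of all tested genes were called. It ranged from 0 to 1 when 1 mouse was left out. The count below, which was 0, became 1 with no filter on counts (Myo3a, with 3 counts) and 2 with limma-voom, which called 33.3% of all genes below. The count of related genes above, which was 10 of 27 tested, became 16 against 1 CPM, where 59.1% of all tested genes were called. The count of related genes below, which was 1, became 3 with no filter, 3 with DESeq2 and 9 with limma-voom, which called 33.3% of all genes below. It became 0 against 1 CPM, with the first run only, with the second run only, without mice 1 and 2, and 0 without any single mouse. The shares over all genes with no filter and with DESeq2 are not given. These counts say little about the related genes. The summed level became 137 CPM without mice 1 and 2. The level of Espn relative to 10 CPM (log2 -0.29, not called) changed sign without mouse 1 (0.1), without mouse 2 (0.03) and without mice 1 and 2 (0.6), none of them called, and was 3.04 against 1 CPM (edgeR adjusted p = 0.0012), where the reference itself is lower. That of Myo3b (1.84, not called) was -3.5 with limma-voom (adjusted p = 0.21). For the other changes the cause was not tested. Depth limits Espnl in every library, Myo3a in all, since its 3 counts in mouse 1 equal the limit, Myo3b in mouse 2, Pcdh15 in mice 1 and 2 and Ush1c in mice 1, 2 and 4, where absence cannot be told, for counting error alone, from levels under 0.0278 to 0.0348 CPM. RNA lost before sequencing was not measured and is not covered by these levels.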
